A study of Zea mays with 30 samples.

Results

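Viviparous1 (VP1) is described here across germination in 2 maize inbred lines. It was chosen by its identifier, Zm00001d042396 in the B73 AGPv4 annotation, before any filter on expression, and it is 1 of the 39005 genes listed. The deposited tables give identifiers only, so the name comes with the choice of the gene. Whole seeds were sequenced from 72-3, a line with fast germination, and F9721, a line with slow germination. Both lines were sampled at 0, 6, 12 and 24 hours after imbibition (HAI), and F9721 also at 36 and 48 HAI, with 3 biological replicates for each of the 10 groups. The 0 HAI libraries came from dry seeds. Seeds of both lines were surface-sterilized with H2O2 and imbibed in water on moist filter paper in a warm incubator with light and dark periods, and the labels name no hormone treatment in either line. Each line is a single inbred genotype, so a difference between them is a difference between these genotypes and not between fast and slow germination in general.

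VP1 encodes a B3-domain transcription factor, the maize counterpart of Arabidopsis ABI3. Together with abscisic acid (ABA) it activates genes of seed maturation in the embryo and aleurone, and it represses genes of germination such as those for hydrolases of the aleurone. Kernels that lack its function do not complete maturation and germinate on the ear, which is the vivipary that named the gene.

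VP1 mRNA was abundant in the dry seeds of both lines, showed no detectable change at 6 HAI, and then fell in both by the last time sampled. By 24 HAI it had fallen further in the fast line. At that time the level in CPM was 10.4% of the dry-seed level in 72-3 and 31.7% in F9721, and F9721 reached 8.50% at 48 HAI. In TPM the same shares were larger, at 16.0%, 41.3% and 13.9%. 72-3 started with the higher mean level in dry seeds and had the lower mean level at 24 HAI, so the difference between the lines changed direction within the first day. In TPM the ranges overlapped at 24 HAI and the difference did not pass its test, nor did it in CPM with only these 2 groups in the fit. The difference in dry seeds no longer passed its test in 3 of the 6 fits without a library. The seeds were extracted whole, so fewer cells that express VP1 and less VP1 mRNA per cell cannot be told apart in these values.

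The libraries held between 8080968 and 14192708 reads counted on genes, and VP1 itself was counted between 155 and 3052 times, so every group was far from the limit of detection. Levels are given as CPM (read counts scaled to a common library total) after scaling by the TMM method, which sets the bulk of genes equal between libraries, and as the deposited TPM (transcript abundances scaled to a common total), which also correct for gene length. The TMM factors moved with time. In 72-3 they were 0.876 to 0.935 at 0 and 6 HAI, 1.08 to 1.14 at 12 HAI and 1.14 to 1.21 at 24 HAI. In F9721 they were 0.853 to 0.944 until 12 HAI and 1.05 to 1.14 from 24 HAI on. Values without this scaling are given where they change a call.

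In dry seeds of 72-3 the 3 replicates held 276, 281 and 270.2 CPM (276 ± 5.59, SD, n = 3). In dry seeds of F9721 they held 171, 177 and 166 CPM (171 ± 5.46, SD, n = 3). The 2 sets of replicates lay close together within each line and did not overlap between the lines. On the TPM scale, which allows genes to be compared with each other, VP1 stood at 105, 102 and 102 TPM in 72-3 and ranked between place 968 and 995 of the 39005 genes. In F9721 it stood at 57.8, 55.5 and 58.7 TPM and ranked between place 1488 and 1620. VP1 mRNA was therefore among the more abundant mRNAs carried by the dry seed in each line.

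At 6 HAI the replicates of 72-3 held 290, 299 and 299 CPM (296 ± 5.26, SD, n = 3), and those of F9721 held 181, 198 and 180.5 CPM (186 ± 9.64, SD, n = 3). The 6 HAI libraries lay above all dry-seed libraries of their line in CPM, and overlapped with them in TPM. The log2 change was 0.10 (SE 0.18) in 72-3 and 0.12 (SE 0.18) in F9721, with adjusted p = 0.941 and 0.9 in the quasi-likelihood test of edgeR, adjusted over all genes tested by the Benjamini-Hochberg method. The first hours of water uptake thus brought no change in VP1 that the test could detect, and 2.89% and 3.15% of the 34746 genes tested rose in the 2 lines at the threshold of an adjusted p of at most 0.01.

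At 12 HAI the replicates of 72-3 held 105, 169 and 171 CPM (148 ± 37.4, SD, n = 3). Replicate 1 stood apart below the other two, and all 3 lay under every 72-3 library of 0 and 6 HAI. VP1 had fallen by 0.90 on the log2 scale from dry seeds (SE 0.18, adjusted p = 0.000229 in edgeR's quasi-likelihood test), in a comparison in which 11.5% of the genes tested fell. Without replicate 1 the change was -0.70 (adjusted p = 0.00485). With the libraries scaled by their totals alone, the change was -0.57 and missed the threshold (adjusted p = 0.0118), while the median of the 22184 expressed genes, meaning those whose mean log2 CPM was 0 or more, moved by 0.33. Relative to that median VP1 was at -0.94 with either scaling, but a change of scaling alone shifts all genes alike. This value therefore could not move and is no support for the call.

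At 12 HAI the replicates of F9721 held 129, 148 and 124 CPM (134 ± 12.9, SD, n = 3). All 3 lay below every F9721 library of 0 and 6 HAI, but the log2 change from dry seeds of -0.35 (SE 0.18) did not pass the test (adjusted p = 0.17 in edgeR's quasi-likelihood test). In that comparison 6.45% of the genes tested fell. The level at 12 HAI was 53.8% of that of dry seeds in 72-3 and 78.2% in F9721 in CPM, and 68.4% and 76.6% in TPM, and the difference between the lines in this change did not pass its test (adjusted p = 0.251 for the interaction in edgeR).

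By 24 HAI the replicates of 72-3 held 39.3, 22.4 and 24.5 CPM (28.7 ± 9.20, SD, n = 3), and none overlapped with an earlier time. VP1 had fallen 9.59-fold from dry seeds (log2 -3.26, SE 0.20, adjusted p = 1.12e-14 in edgeR's quasi-likelihood test). Of the genes tested, 20.9% fell in this comparison, and 7.64% also fell by at least 2 on the log2 scale and are called differentially expressed genes (DEGs), as VP1 was. Among the expressed genes, 4.09% had a lower log2 change than VP1. With limma on log2(TPM + 1) the log2 change was -2.60. The place of VP1 among all genes by TPM had moved to between 6251 and 9273.

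In F9721 the decline was spread over a longer time. At 24 HAI the replicates held 65.8, 45.5 and 51.2 CPM (54.1 ± 10.5, SD, n = 3), all below the 12 HAI libraries. VP1 had changed by -1.66 on the log2 scale from dry seeds (SE 0.19, adjusted p = 1.33e-08 in edgeR's quasi-likelihood test), where 15.6% of genes fell, and did not reach the fold limit of a DEG. At 36 HAI the replicates held 32.8, 39.9 and 27.1 CPM (33.3 ± 6.39, SD, n = 3), which is a log2 change of -2.36 from dry seeds (SE 0.19, adjusted p = 7.42e-12, same test). Here 20.0% of genes fell and 8.20% were DEGs that fell, VP1 among them. On the TPM scale the change at 36 HAI was -1.58 and under the fold limit.

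At 48 HAI the replicates of F9721 held 14.4, 16.4 and 12.8 CPM (14.5 ± 1.77, SD, n = 3). These were the 3 lowest values of the whole series, and VP1 ranked between place 11021 and 11984 by TPM. The fall from dry seeds was 11.8-fold (log2 -3.55, SE 0.20, adjusted p = 2.49e-15 in edgeR's quasi-likelihood test). Of the genes tested, 20.9% fell and 8.59% were DEGs that fell, and 4.36% of expressed genes had a lower log2 change than VP1. With limma on log2(TPM + 1) the log2 change was -2.70.

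**Figure D1:**
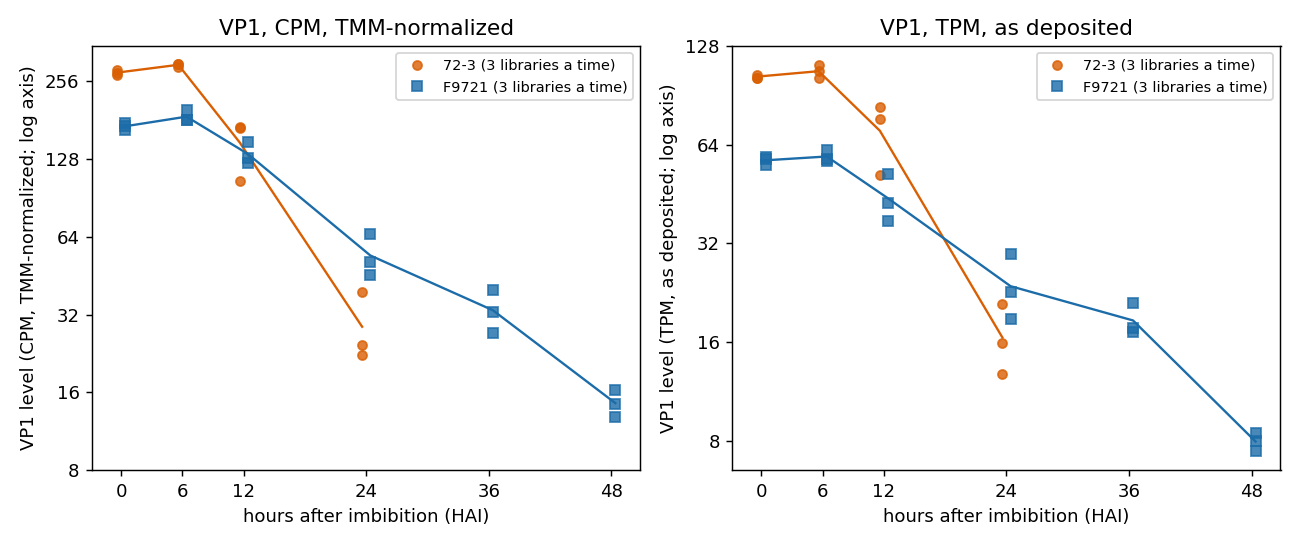
VP1 level in each of the 30 libraries against hours after imbibition, in CPM after TMM scaling (left) and in the deposited TPM (right), both on log axes. Points are libraries, lines join group means, circles are 72-3 and squares are F9721. The 72-3 points start above those of F9721 at 0 and 6 HAI (270.2 to 299 against 166 to 198 CPM) and end below them at 24 HAI in CPM (22.4 to 39.3 against 45.5 to 65.8).

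The steps between consecutive times show when the level moved most. In 72-3 the step from 6 to 12 HAI was -0.996 on the log2 scale (SE 0.18, adjusted p = 0.000174 in edgeR's quasi-likelihood test), where 5.69% of the genes tested fell. The step from 12 to 24 HAI was -2.37 (SE 0.19, adjusted p = 2.5e-11, same test), where 15.8% of genes fell and 4.35% were DEGs that fell, as VP1 was. The later step was thus the larger, although it also lasted longer.

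In F9721 the step from 6 to 12 HAI was -0.48 (SE 0.18) and did not pass (adjusted p = 0.0903 in edgeR's quasi-likelihood test), against 1.78% of genes that fell. It passed when only these 2 groups entered the fit (adjusted p = 0.00286). The step from 12 to 24 HAI was -1.31 (SE 0.19, adjusted p = 4.07e-06), where 7.28% of genes fell. VP1 went on falling afterwards, with a log2 change of -0.70 from 24 to 36 HAI (SE 0.19, adjusted p = 0.00476), where 9.98% of genes fell, and of -1.19 from 36 to 48 HAI (SE 0.19, adjusted p = 0.000145), where 1.57% fell. In the last step 2.24% of expressed genes had a lower log2 change than VP1.

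The fall from 24 to 36 HAI was the least firm of these. The CPM ranges of the 2 groups were separate, with a lowest value of 45.5 at 24 HAI and a highest of 39.9 at 36 HAI, but their TPM ranges overlapped. The log2 change in TPM was -0.31 with limma (adjusted p = 0.169). In edgeR's quasi-likelihood test the call was lost in 3 of the 6 fits without a library. The change was -0.54 without F9721 replicate 1 at 24 HAI (adjusted p = 0.0497). It was -0.69 without replicate 1 at 36 HAI (adjusted p = 0.0191) and -0.58 without replicate 3 at 36 HAI (adjusted p = 0.0441). The remaining fits kept the call, with adjusted p of 0.00269 to 0.00962.

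**Figure D2:**
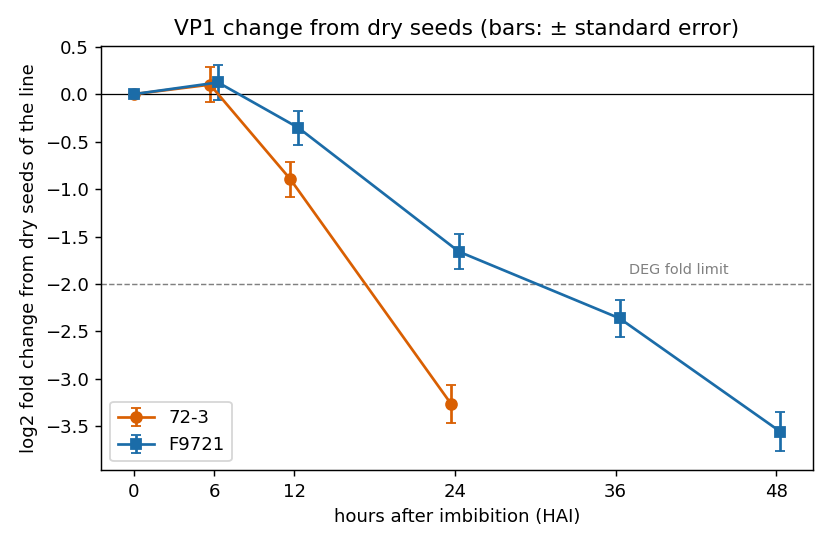
Log2 fold change of VP1 from the dry seeds of the same line (vertical axis) against hours after imbibition, from edgeR on counts with TMM scaling. Bars are standard errors, circles are 72-3, squares are F9721, and the dashed line marks the fold limit of a DEG. Both lines stay near 0 at 6 HAI (0.10 and 0.12), and 72-3 at 24 HAI (-3.26) lies between F9721 at 36 HAI (-2.36) and 48 HAI (-3.55).

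The order of the levels was the same in both lines for the shared times, with 6 HAI highest, then 0, 12 and 24 HAI, followed in F9721 by 36 and 48 HAI, and all 10 groups kept their place within the line when TPM replaced CPM. Across all groups by CPM, the order ran from 72-3 at 6 HAI and 0 HAI through F9721 at 6 HAI and 0 HAI, 72-3 at 12 HAI, F9721 at 12, 24 and 36 HAI and 72-3 at 24 HAI to F9721 at 48 HAI. By TPM this order changed, with 72-3 at 12 HAI (mean 70.6 TPM) above F9721 at 6 HAI (58.9) and 0 HAI (57.3). Neighbours whose CPM ranges overlapped were F9721 at 0 HAI with 72-3 at 12 HAI, 72-3 at 12 HAI with F9721 at 12 HAI, and F9721 at 36 HAI with 72-3 at 24 HAI. In TPM, 6 HAI and 0 HAI overlapped too in each line, as did F9721 at 24 and 36 HAI. The replicates were closer together early, with coefficients of variation of 1.78% to 5.17% at 0 and 6 HAI and of 9.65% to 32.1% from 12 HAI on.

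A straight line between the mean log2 levels of neighbouring times places a 2-fold loss from the dry-seed level at 12.4 HAI in 72-3 and 17.8 HAI in F9721. Leaving out each library in turn moved this time between 11.7 and 13.4 HAI in 72-3 (12 libraries) and between 17.2 and 18.4 HAI in F9721 (18 libraries). The 2 ranges did not overlap. Libraries at 6, 36 and 48 HAI do not enter the interpolation, so leaving them out could not move the time. With TPM both times were later, at 14.5 and 20.4 HAI. These are interpolations between samples taken hours apart and carry no test.

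The lines were compared at each of the 4 times that both share. VP1 passed some of these tests, but no difference between the lines reached the fold limit of a DEG. The same holds for the interactions and the pairs of different times below. The study, whose DEGs carry the same fold limit, reports the germination genes it examined, VP1 among them, as highly expressed in both lines with no significant difference. Reads of both lines were aligned to the B73 reference. The study lists a higher mapping rate for every 72-3 library than for any F9721 library. Whether this shifts the ratios of VP1 between the lines was not tested. In dry seeds VP1 was 1.61-fold higher in 72-3 (log2 0.69, SE 0.18, adjusted p = 0.00297 in edgeR's quasi-likelihood test), and 14.5% of the genes tested were higher in 72-3. At 6 HAI it was 1.59-fold higher (log2 0.67, SE 0.18, adjusted p = 0.00397), and 14.1% of genes were higher. The 3 replicates of 72-3 lay above the 3 of F9721 at both times. At either time 77.5% of expressed genes had a lower log2 ratio than VP1, so a difference of this size was common among the genes.

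In the fit to all 10 groups, which share an estimate of the spread, both early differences lay close to the threshold. For dry seeds the adjusted p was 0.0109 without 72-3 replicate 2 (log2 0.67), 0.0117 without F9721 replicate 1 (log2 0.69) and 0.0142 without F9721 replicate 3 (log2 0.67). For 6 HAI it was 0.0111 without 72-3 replicate 2 (log2 0.66), 0.0123 without 72-3 replicate 3 (log2 0.66), 0.0169 without F9721 replicate 1 (log2 0.65) and 0.0181 without F9721 replicate 3 (log2 0.64), all in edgeR's quasi-likelihood test. The size of the difference hardly moved in these fits. With only the 2 groups in the fit, both differences were called in the same test. The adjusted p was 1.94e-08 in dry seeds (log2 0.65, SE 0.081) and 0.000204 at 6 HAI (log2 0.67, SE 0.12). On the TPM scale the difference was larger, 1.80-fold in dry seeds and 1.82-fold at 6 HAI. Limma on log2(TPM + 1) called it at both times (adjusted p = 0.000337 and 0.000293).

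At 12 HAI the groups overlapped in CPM, since 72-3 replicate 1 at 105 lay below all 3 F9721 libraries and the other 72-3 replicates lay above them. The log2 ratio was 0.15 (SE 0.18, adjusted p = 0.558 in edgeR's quasi-likelihood test), and 15.8% of genes were higher in 72-3. Without that replicate it was 0.34 (adjusted p = 0.152). On the TPM scale 72-3 was 1.61-fold higher, and limma on log2(TPM + 1) called the difference (log2 0.66, adjusted p = 0.00249). The median of the expressed genes moved by 0.41 on that scale relative to TMM scaling, and VP1 relative to the median was at 0.23 in TPM and 0.13 in CPM. The TPM fit differs from the count fit in the test and the length correction as well as the scaling. Within edgeR no scaling called the difference, with log2 0.42 for library totals only (adjusted p = 0.0555) and 0.14 for DESeq2 size factors (adjusted p = 0.599).

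At 24 HAI the direction had turned. The 3 replicates of 72-3, at 22.4 to 39.3 CPM, lay below the 3 of F9721, at 45.5 to 65.8 CPM. VP1 was 1.88-fold lower in 72-3 (log2 -0.91, SE 0.19, adjusted p = 0.000129 in edgeR's quasi-likelihood test), and 20.3% of the genes tested were lower in 72-3. In TPM the ranges overlapped and the log2 ratio of -0.50 missed the threshold (adjusted p = 0.0154, limma). With only the 2 groups in the fit it was -0.94 (adjusted p = 0.0117). The direction was the same in all of these. Relative to the median of expressed genes, which takes out any shift shared by all genes, VP1 was at -0.91 in CPM and -0.82 in TPM.

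**Figure D3:**
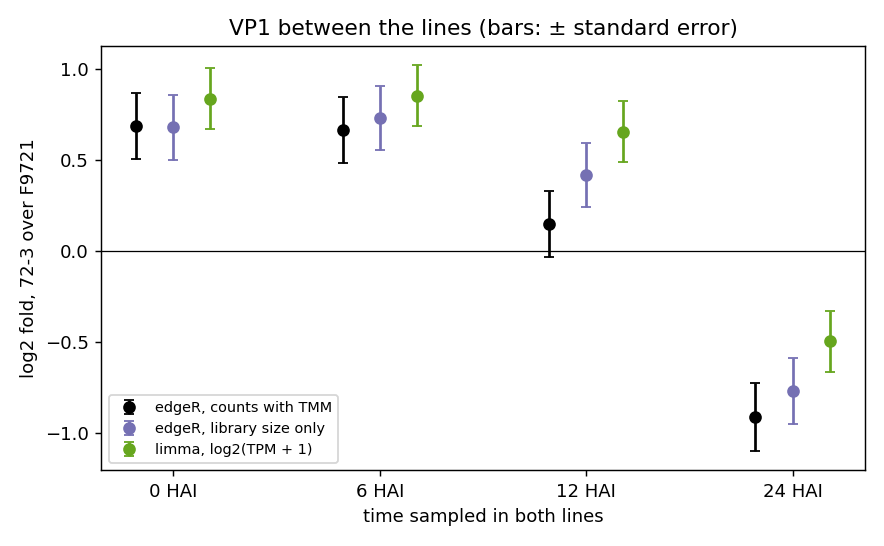
Log2 ratio of VP1 in 72-3 over F9721 at each shared time (vertical axis), from edgeR with TMM scaling (black), edgeR with library totals only (purple) and limma on log2(TPM + 1) (green). Bars are standard errors. The ratio is above 0 at 0 and 6 HAI (0.69 and 0.67 with TMM), lies between 0.15 and 0.66 at 12 HAI over the 3 fits, and is below 0 at 24 HAI in all 3 (-0.91 to -0.50).

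The interaction of line and time tests whether the change in VP1 differed between the lines. From 0 to 6 HAI the difference in log2 change (72-3 less F9721) was -0.02 (SE 0.26, adjusted p = 1 in edgeR's quasi-likelihood test), where 0.106% of genes passed in the same direction. From 0 to 12 HAI it was -0.54 (SE 0.26, adjusted p = 0.251), where 1.74% passed. This value was -0.26 with library totals only, -0.18 with limma on log2(TPM + 1) and -0.52 with only the groups compared (adjusted p = 0.0314, same test). The 12 fits without a library ran from -0.65 (without 72-3 replicate 3 at 12 HAI) to -0.35 (without 72-3 replicate 1 at 12 HAI). No fit called this difference. From 0 to 24 HAI it was -1.60 (SE 0.26, adjusted p = 1.68e-05), where 11.6% passed, so VP1 fell 3.03-fold further in 72-3 than in F9721 over the first 24 hours. That call stood in each of the 10 alternative settings and without any single one of the 12 libraries, with values from -1.90 to -1.33.

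The steps inside this interval were compared after the values had been seen. From 6 to 12 HAI the step differed by -0.52 (SE 0.26, adjusted p = 0.413 in edgeR's quasi-likelihood test; 0.305% of genes passed). From 12 to 24 HAI it differed by -1.06 (SE 0.26, adjusted p = 0.00394; 6.07% passed). The second difference was still called in 5 of the 12 fits without a single library. The adjusted p was 0.0156 to 0.0173 without replicate 2 or 3 of 72-3 at 12 HAI or replicate 2 at 24 HAI and 0.0138 without replicate 3 at 24 HAI, with log2 differences of -0.96 to -0.91. It was 0.0111 and 0.0138 without replicate 1 or 3 of F9721 at 12 HAI and 0.0197 without replicate 1 at 24 HAI, with differences of -1.04 to -0.90.

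VP1 was also compared between different times of the lines, chosen by the progress of germination. The study likens the enriched pathways of 72-3 at 24 HAI to those of F9721 at both 36 and 48 HAI. Only the pair with 48 HAI was tested. In CPM, 72-3 at 24 HAI overlapped with F9721 at 36 HAI (means 28.7 and 33.3). 72-3 at 12 HAI held 2.74-fold more VP1 mRNA than F9721 at 24 HAI (log2 1.45, SE 0.19, adjusted p = 1.58e-07 in edgeR's quasi-likelihood test), where 16.2% of genes were higher in 72-3. At the last time sampled in each line, 72-3 at 24 HAI held 1.98-fold more than F9721 at 48 HAI (log2 0.98, SE 0.19, adjusted p = 0.000119, same test), where 16.0% of genes were higher. The ranges did not overlap in either tested pair. With only the 2 groups in the fit, the second tested pair had a log2 ratio of 0.94 and an adjusted p of 0.0255.

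The genes whose pattern over the 30 libraries was most like that of VP1 were found from the root mean square difference of log2(CPM + 1). Each gene was centred on its mean over the 30 libraries of both lines. Differences between the lines and between replicates therefore enter the measure along with the time course. Of 22183 genes compared, the median difference from VP1 was 1.57 log2 units, and 127 genes lay within 0.5. The 5 closest were Zm00001d003125 (0.284), Zm00001d003451 (0.291), Zm00001d024645 (0.297), Zm00001d034433 (0.313) and Zm00001d014481 (0.321). The points share their libraries, and the likeness is a description of these 30 libraries with no test. All 5 were also among the 50 genes closest to VP1 by Pearson correlation, by the 10 group means and by log2(TPM + 1), all taken from the same libraries. Among the 5 closest by these measures were 2, 4 and 4 of them. Zm00001d014481 moved to place 23 by Pearson correlation and 36 by log2(TPM + 1).

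These 5 genes were chosen for following VP1, so their changes are given as values. From dry seeds to 24 HAI in 72-3 the log2 change was -3.90 for Zm00001d003125, -3.34 for Zm00001d003451, -3.91 for Zm00001d024645, -4.17 for Zm00001d034433 and -3.66 for Zm00001d014481. From dry seeds to 48 HAI in F9721 it was -4.17, -3.81, -3.65, -3.24 and -3.75 in the same order. The most abundant was Zm00001d034433, with a mean of 638 CPM in dry seeds of 72-3 and 252 in those of F9721. In dry seeds all 5 had a higher mean in 72-3, as VP1 did, by log2 0.62 to 1.34, a difference that the measure of likeness itself takes in.

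**Figure D4:**
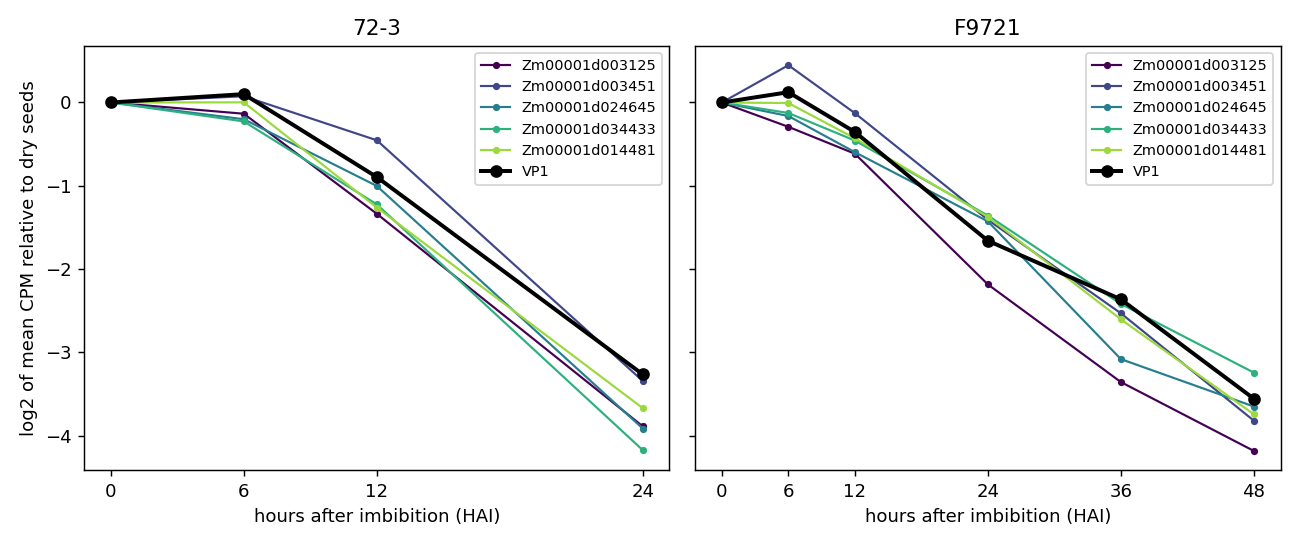
Log2 of the mean CPM relative to dry seeds of the same line (vertical axis) against hours after imbibition, for VP1 (thick black line) and the 5 genes with the most similar pattern (thin lines), in 72-3 (left) and F9721 (right). Points are means of 3 libraries. In 72-3 the thin lines end between -4.17 and -3.34, all below VP1 at -3.26, and in F9721 they end between -4.17 and -3.24, on both sides of VP1 at -3.55.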

How the data were processed

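RNA from whole seeds was sequenced as paired-end libraries. Reads were trimmed (fastp), aligned to B73 RefGen_v4, also called AGPv4 (HISAT2), and assigned to genes (HTSeq, union mode) by the authors. The deposited count values are raw, with no normalization, and the authors derived the deposited TPM values in R. Tool versions, the strand setting of the counting and the gene lengths behind TPM are not given in the sources used here, so reads of a gene that overlaps VP1 on the other strand could not be told apart. DESeq2 is also named in the submitters' processing notes. Counting entries that name no gene (5.59% to 20.9% of reads outside genes, 1.60% to 2.11% ambiguous) were left out of library sizes and tests. Line, time and replicate were taken from the labels of all 30 libraries. The study describes pooled seeds and replicates from different ears, without tying a replicate number to an ear.

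Tests were run with edgeR 4.0.16 in R 4.3.3, with TMM scaling and quasi-likelihood tests on 10 group means over all 30 libraries, for the 34746 genes with at least 1 read. The Benjamini-Hochberg adjustment ran over these genes in each comparison. The threshold was an adjusted p of 0.01 or less, and DEGs also had to change by 2 or more on the log2 scale in either direction. Standard errors are the absolute log2 fold change divided by the square root of the F statistic. Genes with a mean log2 CPM of 0 or more are called expressed. The 25 comparisons of VP1 were repeated with DESeq2 1.42.0, DESeq2 size factors, library size only, filterByExpr, no filter, a replicate block, a stricter threshold of 0.001 for the adjusted p, a fit on only the groups compared, fits without each library, and limma 3.58.1 on log2(TPM + 1) and log2(TPM + 0.1). The steps were tested on simulated data. Replicates of a group differed by more than sampling noise, the lowest mean chi-square per gene of any pair being 2.26.

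The genes named are VP1 and the 5 with the smallest root mean square difference from it. VP1, this rule and the lists were chosen with earlier results of these data known. A list of 35 seed maturation and ABA genes was not analysed here, because none of the 49888 genes of the RefSeq table could be tied to the identifiers of the counts. For the same reason no sequence, position or marker of embryo and endosperm is given. Among the groups compared here, same-numbered libraries deviated together most strongly for F9721 at 36 and 48 HAI (r = 0.538 to 0.865 over genes). Libraries with different numbers were not compared, so whether the replicate numbers pair the samples was not tested. The step between these times was tested without a pairing.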

Additional observations from a re-analysis of the deposited data

Results flagged for a closer look

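The change in VP1 from dry seeds to 24 HAI differed between the lines by -1.60 on the log2 scale (72-3 less F9721), in a direct test of that difference with edgeR's quasi-likelihood method (adjusted p = 1.68e-05). All 3 libraries of 72-3 lay above those of F9721 in dry seeds and below them at 24 HAI in CPM.

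The step from 12 to 24 HAI, compared after the values were seen, differed between the lines by -1.06 in the same test (adjusted p = 0.00394). The cause of either difference was not tested.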

How the results depend on the processing

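Every change of VP1 from dry seeds that was called at 24, 36 or 48 HAI stayed called in the same direction in all settings, as did both steps out of 12 HAI and the step from 36 to 48 HAI within lines. With the replicate block no call changed (72-3 at 24 HAI against dry seeds -3.26, F9721 at 48 against 36 HAI -1.19), and none changed without a filter. The block gave each replicate number the same effect in all groups. It therefore did not model a pairing confined to F9721 at 36 and 48 HAI. With library size only, 72-3 at 12 HAI against dry seeds was -0.57 and not called. With limma on log2(TPM + 1) and log2(TPM + 0.1) that change was -0.57 and -0.58 and the step of F9721 from 24 to 36 HAI was -0.31 and -0.33, neither called. The lines at 12 HAI differed by 0.66 and 0.67, now called, and at 24 HAI by -0.50 and -0.52, no longer called. With only the groups compared, the step of F9721 from 6 to 12 HAI was called at -0.48. The calls were lost there for F9721 from 24 to 36 HAI (-0.70), the lines at 24 HAI (-0.94), the interaction from 12 to 24 HAI (-1.07) and 72-3 at 24 HAI against F9721 at 48 HAI (0.94). At an adjusted p of at most 0.001 the calls lost were F9721 from 24 to 36 HAI (-0.70), the lines at 0 and 6 HAI (0.69 and 0.67) and the interaction from 12 to 24 HAI (-1.06). The interaction from 0 to 6 HAI, not called anywhere, changed sign from -0.02 to 0.012 with DESeq2 size factors, 0.012 with DESeq2, 0.052 with library size only, 0.0016 with filterByExpr, 0.016 with either TPM fit and 0.057 with only the groups compared. The time of a 2-fold loss was 14.5 HAI in 72-3 and 20.4 HAI in F9721 with TPM. The cause of these differences was not tested.

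Leaving out each library in turn gave 0.67 to 0.71 for the lines at 0 HAI, 0.64 to 0.71 at 6 HAI, -0.85 to -0.54 for F9721 from 24 to 36 HAI, -1.35 to -0.90 for the interaction from 12 to 24 HAI and -0.047 to 0.020 for that from 0 to 6 HAI. The time of a 2-fold loss ranged from 11.7 to 13.4 HAI in 72-3 and from 17.2 to 18.4 HAI in F9721. The number of genes called in the direction of VP1 moved by more than 1.5 times in 59 of 250 fits, in 21 of the 25 comparisons. It ran, for example, from 1246 to 5002 around 4005 for 72-3 at 12 HAI against dry seeds, and from 101 to 1794 around 618 for F9721 from 6 to 12 HAI. With 3 libraries a group, the differences between the lines at 0 and 6 HAI lost their call in 3 of 6 and 4 of 6 of the fits without a library.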
